A study of Mus musculus with 12 samples.

Results

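RNA of mouse lung explants held in a hardened gel for 2 days was compared with RNA of explants grown without that constraint. The comparison sets 4 libraries labelled compression against 4 libraries labelled control at Day 2, which are 8 of the 12 libraries of the series. Members were taken from the titles and treatment labels and from no measured value, and every gene of the deposited table entered. All lungs came from wild type CD-1 mouse fetuses at 12.5 days of gestation and were kept as whole explants in Matrigel on a porous insert, with air above and medium beneath. On the following day, called Day 0, a 20% solution of PEG-HCC was added, a polyethylene glycol gel that sets where a two-photon laser crosslinks it. In the compression group the gel was crosslinked as a wall around the lung. In the control group the same amount of solution stayed uncrosslinked, so the groups differ in growth space and also in crosslinked gel and laser treatment, and these cannot be told apart. The other 4 libraries are lungs of Day 0, which enter the fit but not the comparison. The labels give neither the number of lungs in a library nor whether libraries came from separate animals, so p-values measure the spread between these samples, which may be technical.

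At this age the lung is an epithelial tree that grows by branching. Progenitor cells at its distal tips give rise to alveolar cells, and the stalks behind them form airways with multiciliated and secretory cells. Mesenchyme, vessels, fetal macrophages and an outer sheet of mesothelium surround the tree. Fluid pressure in the lumen and the space around the organ are known to influence branching and epithelial differentiation. In congenital diaphragmatic hernia, which the series title names, abdominal organs press on the growing lung. The title also names VEGF, the growth factor family that acts on endothelium and that epithelium and mesenchyme of the lung produce. An explant has vessels but no blood flow.

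Total counts were 15452117 to 30805341 in controls and 25680019 to 31739019 under compression, and control replicate 4 was the shallowest of the 8. Values are counts scaled to the library size with TMM factors (CPM), given for replicates 1 to 4 in that order or as mean ± SD (n = 4). Of the markers of lung epithelium and lung mesenchyme, 6 of 6 and 5 of 5 had counts among the 8 libraries. Their sums were at least 1615 and 4384 CPM in every library. Control replicate 4 held liver transcripts, with a sum over 4 liver markers of 1434 CPM against 0.290 to 1.05 in the other controls and 1.45 to 2.97 under compression. It also held skeletal muscle transcripts (sum over 3 markers 14.2 CPM, against at most 1.10 elsewhere). Compression replicates 2 and 3, whose descriptions share a number, were closer to each other than any other pair of libraries within either Day 2 group. The dispersion between them was 8.76e-04, and between other pairs 0.0100 to 0.0428. Over genes the mean chi-square of this pair was 4.03, and that of other pairs 16.1 or more. They are counted as 2 samples, as labelled, and results with their counts summed are given for the genes with the smallest p and for each list whose count that moved by over 1.5 times. Xist, transcribed from the inactive X chromosome, marked control replicates 2 and 3 and compression replicate 1 as female.

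No gene passed the threshold of an adjusted p under 0.05 in edgeR's quasi-likelihood test of 15246 genes (0%), where the lowest adjusted p was 0.0767. At an unadjusted p under 0.05 there were 1839 genes (12.1%), of which 1026 were higher under compression (6.73%) and 813 lower (5.33%). The groups did not overlap for 879 genes (5.77%): all 4 compression libraries lay above all 4 controls for 468 (3.07%) and below them for 411 (2.7%). Fold changes were positive for 51% of genes and negative for 49%. DESeq2 called 69 genes (0.453%), 51 of them higher and 18 lower, while limma-voom with sample weights called 1913.

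The number of calls followed which libraries entered. Without control replicate 4, edgeR called 53 genes (0.344%), 52 of them higher, and at an unadjusted p under 0.05 8.83% of genes were higher and 6.02% lower. With compression replicates 2 and 3 summed it called 0 (0%) and the lowest adjusted p was 0.32. In that fit 1183 genes had an unadjusted p under 0.05 (7.69%), with 4.4% of genes higher and 3.29% lower. Counts of list members in a fit are to be read against the shares of that same fit. With both changes together it called 10 genes (0.0652%), all higher under compression: Adora1, Ccl3, Ccl9, Cd14, Cybb, Hcls1, Itgal, Itgam, Lyz2 and Pld4. Without compression replicate 1 it called 19 (0.124%), of which 9 were higher and 10 lower. In a fit of only the 8 Day 2 libraries 4 genes were called (0.0266%), Col23a1, H2-Eb1, Mgp and Penk, and all 4 were higher. The 69 genes of DESeq2 and the 53 without control replicate 4 shared 20 genes, 28.99% of the former and 37.74% of the latter.

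**Figure D1:**
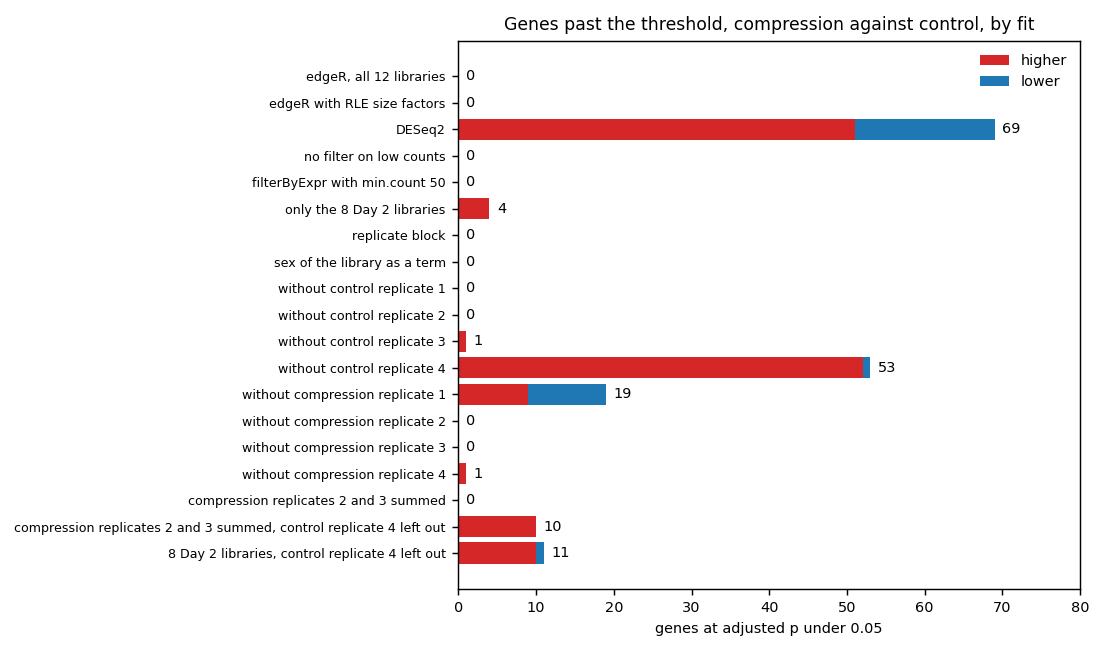
Number of genes past an adjusted p of 0.05 for compression against control (x axis) in each fit (y axis), with genes higher under compression in red and lower in blue. The fit of all 12 libraries called 0, DESeq2 69 and edgeR without control replicate 4 53; limma-voom, with 1913, is left off the scale.

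The smallest p-values belonged to 4 genes that were higher under compression. Penk, which encodes the opioid precursor proenkephalin (GRCm38 chr4:4133531-4138819, minus strand), stood at 20.02, 19.7, 22.4 and 22.03 CPM in controls 1 to 4 and at 30.7, 37.6, 37.6 and 34.6 CPM in compression replicates 1 to 4. Every compression library lay above every control, and the controls lay within a narrow band. The ratio of means was 1.67 (log2 fold change 0.74, SE 0.11, adjusted p = 0.0767). The adjusted p of Penk passed the threshold in 6 of 19 alternatives, among them 0.0187 without control replicate 4, 0.041 without compression replicate 1 and 1.86e-06 with DESeq2. It was 0.32 with compression replicates 2 and 3 summed, 0.0707 with control replicate 4 also left out, 0.214 with a term for sex and at most 0.418, with compression replicate 2 left out. At Day 0 the gene averaged 9.73 ± 1.65 CPM. A gene on the other strand covers 14.3% of the exon length of Penk, and no source used here states how strand was treated in counting.

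Mgp, whose product is a matrix protein that inhibits calcification (chr6:136872435-136875823, minus strand), stood at 44.2, 47.8, 51.01 and 46.4 CPM in controls and 75.8, 67.2, 64.7 and 66.2 CPM under compression (log2 fold change 0.53, SE 0.08, adjusted p = 0.0767). The highest library was compression replicate 1, and the other 3 were close to each other. Ifitm1, an interferon-inducible membrane protein gene with close paralogs (chr7:140967221-140969825, plus strand), stood at 8.11, 7.89, 7.51 and 7.47 CPM and 13.8, 15, 16.7 and 10.98 CPM (0.86, SE 0.13, adjusted p = 0.0767). The 4 controls were almost equal, and compression replicate 4 was the closest to them. H2-Eb1, which encodes a chain of an MHC class II molecule (chr17:34305867-34316674, plus strand), stood at 0.483, 0.412, 0.612 and 0.702 CPM and 2.78, 3.15, 2.57 and 2.72 CPM, a ratio of means of 5.08 (2.36, SE 0.37, adjusted p = 0.0767). Its levels are low, and all controls lay far below the lowest compression library. The adjusted p of Mgp, Ifitm1 and H2-Eb1 was also 0.32 with compression replicates 2 and 3 summed and 0.418 without compression replicate 2, and it passed in 4, 5 and 6 of the 19 alternatives.

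Next in order came genes of several kinds. Itln1, which encodes a lectin that binds microbial sugars, stood at 0.0965, 0.103, 0.918 and 0.383 CPM in controls and 1.86, 3.22, 3.07 and 2.78 CPM under compression (2.86, SE 0.52, adjusted p = 0.224). The controls themselves spread widely, with replicate 3 the highest of them. Hdc, the enzyme gene for histamine synthesis, stood at 1.995, 0.446, 1.43 and 1.72 CPM and 7.80, 4.65, 4.97 and 3.24 CPM (1.89, adjusted p = 0.224). For Hdc the highest library was compression replicate 1 and the lowest control replicate 2. Adora1, an adenosine receptor gene, stood at 1.13, 1.20, 1.33 and 2.55 CPM and 3.96, 3.01, 3.55 and 3.43 CPM (1.21, adjusted p = 0.224). Control replicate 4 was the highest control, and without it the log2 fold change of Adora1 was 1.52 (adjusted p = 0.00605, range over the 19 alternatives 0.00399 to 0.688).

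Smaller differences with no overlap between the groups were those of Fbxo32, a ubiquitin ligase gene of muscle wasting (34.6 ± 3.44 CPM under compression against 25.4 ± 2.08 in controls), the intraflagellar transport gene Ift27 (23.99 ± 0.546 against 18.1 ± 1.57) and Irf2bp2, a corepressor gene (182 ± 15.8 against 144 ± 8.26). Bex2 had 20.3 ± 1.44 against 15.9 ± 0.693 CPM, and Rnf186, an epithelial ubiquitin ligase gene, 1.48 ± 0.552 against 0.389 ± 0.0716 CPM. Their log2 fold changes ran from 0.34 for Irf2bp2 to 1.89 for Rnf186, with adjusted p-values of 0.224 to 0.242. The largest fold changes among genes that did not overlap belonged to Itln1, Slc34a2 (2.66), H2-Eb1, Rnf186, Hdc and the cilium gene Ccdc153 (1.72), of which Slc34a2 is described with the surfactant genes.

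Genes that were lower under compression had smaller fold changes. Tspyl2, a nucleosome assembly protein relative, stood at 54.5, 54.9, 58.1 and 59.96 CPM in controls and 48.6, 43.7, 47.03 and 40.9 CPM under compression (-0.34, SE 0.06, adjusted p = 0.224). The groups did not overlap, and control replicate 4 was the highest library. Heatr1, a factor of small ribosomal subunit assembly (chr13:12395027-12440289, plus strand), stood at 75.01, 77.4, 73.2 and 73.4 CPM and 67.1, 58.99, 59.4 and 55.9 CPM (-0.31, SE 0.06, adjusted p = 0.224). Compression replicate 1 was the nearest to the controls, and without that library the adjusted p of Heatr1 was 0.041 (range over the 19 alternatives 0.00161 to 0.688, with 3 past the threshold). At Day 0 its mean was 106 ± 3.57 CPM. Acaca, the enzyme gene that commits carbon to fatty acid synthesis, stood at 158, 163, 159 and 153 CPM and 141, 131, 133 and 135 CPM (-0.23, adjusted p = 0.252), with a clear gap between the groups.

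Pnpla3, a lipid droplet enzyme gene, averaged 2.99 ± 0.716 against 5.78 ± 1.49 CPM (-0.95), with control replicate 2 far above the others at 7.99. The synaptotagmin gene Syt2 was at 0.919 ± 0.259 against 1.87 ± 0.327 CPM (-1.03), and the phospholipase-domain gene Plcxd2 at 4.62 ± 0.314 against 7.65 ± 1.93 CPM (-0.72), with control replicate 4 highest at 10.5. Other genes of this kind were the deubiquitinase gene Usp24 (-0.25), the zinc finger gene Zfp629 (-0.28), the semaphorin gene Sema6d (-0.32) and the small nucleolar RNA host Snhg17 (-0.32). Larger negative fold changes at low levels were those of the germ cell gene Asz1 (-0.91), the transporter gene Abca13 (-0.82) and the muscle methyltransferase gene Smyd1 (-0.75). Adjusted p-values of these 9 genes and of Pnpla3 ran from 0.252 to 0.374.

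**Figure D2:**
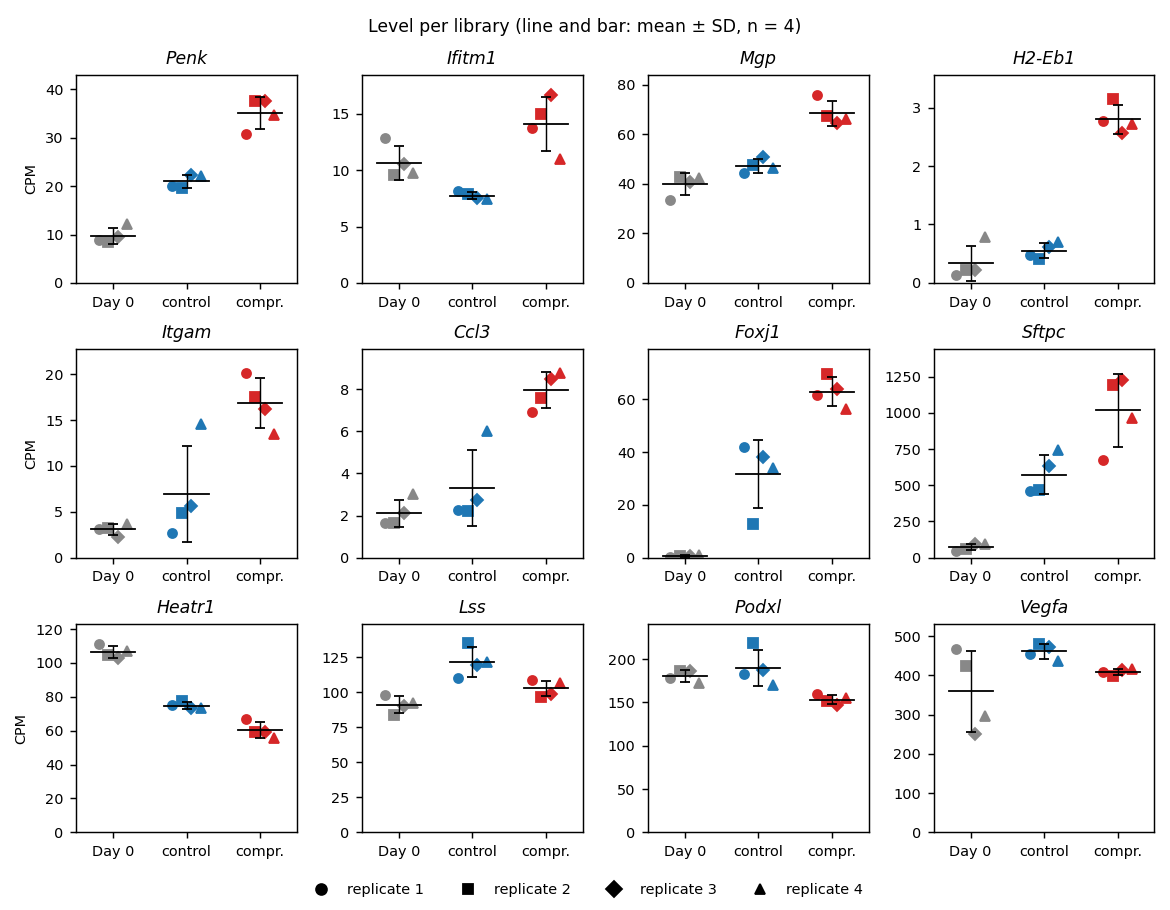
Level of 12 genes in CPM (y axis, from 0) in the 4 libraries of Day 0 (grey), Day 2 control (blue) and Day 2 compression (red); the symbol gives the replicate, the line the mean and the bar the SD. Penk, Mgp, Ifitm1, H2-Eb1, Ccl3 and Foxj1 are higher in all 4 compression libraries than in any control, Itgam overlaps through control replicate 4, and Heatr1, Lss, Podxl and Vegfa are lower in all 4.

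Genes of macrophages and other leukocytes were higher under compression than in control replicates 1 to 3, while control replicate 4 lay near the compression libraries. All 24 members of the list had positive fold changes (median 0.47, against 0.00 over all genes tested), and 16 had an unadjusted p under 0.05, against the background of 6.73%. The list score, the mean log2 CPM of its members minus the control mean, was -0.34, -0.11, -0.12 and 0.57 in the controls and 0.61, 0.64, 0.61 and 0.40 under compression. In bulk tissue, more cells of a type and more RNA per cell cannot be told apart. Without control replicate 4, 22 of 24 members had an unadjusted p under 0.05 (background 8.83%) and 6 passed the adjusted threshold. With compression replicates 2 and 3 also summed, these numbers were 21 (background 6.43%) and 3.

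Itgam encodes the integrin chain of complement receptor 3 on myeloid cells (chr7:128062640-128118491, plus strand). It stood at 2.67, 4.84, 5.61 and 14.6 CPM in controls and 20.1, 17.5, 16.2 and 13.5 CPM under compression (1.33, SE 0.38, adjusted p = 0.309). Control replicates 1 to 3 lay well below all compression libraries, and control replicate 4 lay inside their range. Without that library the log2 fold change of Itgam was 1.95 (adjusted p = 0.00605), and 1.95 (0.0245) with compression replicates 2 and 3 summed as well. Exons of Itgam share 68.7% of their length with the model Gm49368 on the same strand. Cybb, the catalytic subunit gene of the phagocyte oxidase, had the same order, with 5.76, 7.17, 7.24 and 19.9 CPM and 33.7, 22.6, 22.9 and 16.8 CPM (adjusted p = 0.309, and 0.00605 without control replicate 4). Lyz2, the lysozyme gene of macrophages and of some lung epithelium, stood at 37.5, 47.7, 58.6 and 141 CPM and 168, 145, 145 and 89.98 CPM (adjusted p = 0.378, and 0.0111 without control replicate 4). For Cybb and Lyz2 control replicate 4 also lay among the compression libraries. With compression replicates 2 and 3 summed and control replicate 4 kept, the adjusted p of Itgam, Cybb and Lyz2 was 0.64. It reached 0.688 with compression replicate 2 left out.

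Some leukocyte genes kept the groups apart with control replicate 4 included. Cd53, a pan-leukocyte tetraspanin gene, stood at 16.6, 17.6, 15.9 and 18.7 CPM and 24.1, 26.6, 27.1 and 20.2 CPM (0.51, adjusted p = 0.252), and Hcls1, a cortactin relative of blood cells, at 3.70, 3.88, 3.84 and 7.34 CPM and 8.71, 7.76, 7.94 and 7.90 CPM (0.81, adjusted p = 0.255). Pf4, a chemokine gene expressed by fetal macrophages and platelets, had 2.19, 2.64, 4.72 and 3.77 CPM and 4.94, 7.73, 7.47 and 6.38 CPM (1.001, adjusted p = 0.252). In Cd53 and Hcls1, compression replicate 4 or control replicate 4 narrowed the gap, and in Pf4 compression replicate 1 did. The small GTPase gene Rac2 (0.74), the oxidase subunit gene Ncf1 (0.74), the inhibitory Fc receptor gene Fcgr2b (1.13) and the phospholipase D relative Pld4 (0.96) passed without control replicate 4, with adjusted p-values of 0.0262, 0.0245, 0.0374 and 0.0111. So did the Ras-association gene Rassf4 (0.57, 0.0138) and the complement C1 inhibitor gene Serping1 (0.52, 0.0156). Of these 6 genes only Pld4 kept the groups apart with control replicate 4 included, and the other 5 overlapped. With compression replicates 2 and 3 summed the adjusted p of these 6 genes was 0.64, and with control replicate 4 also left out it was under the threshold for Pld4 (0.0489) and from 0.0642 to 0.124 for the other 5.

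The pan-leukocyte phosphatase gene Ptprc, which encodes CD45, averaged 14.6 ± 3.33 against 9.14 ± 3.56 CPM, and control replicate 4 alone held 14.4. Adgre1, which encodes the macrophage marker F4/80, averaged 27.04 ± 11.99 against 16.7 ± 2.71 CPM, with compression replicate 1 far above the rest at 44.5. The integrin gene Itgal had 0.547, 0.515, 0.714 and 3.32 CPM and 3.42, 2.45, 2.40 and 2.56 CPM, the chemokine gene Ccl9 3.19, 3.84, 6.90 and 20.9 and 15.7, 14.6, 15.3 and 14.7, and Cd14, a coreceptor for lipopolysaccharide, 3.31, 4.39, 5.78 and 10.7 and 13.4, 11.3, 11.2 and 9.71. For Itgal and Ccl9, control replicate 4 was above at least 3 of the compression libraries. That library is also the one with liver transcripts (4 of 4 markers, sum 1434 CPM) and muscle transcripts, and their part in its leukocyte level was not tested. Among genes of macrophage lipid handling and lysosomes 6 of 20 were higher and 0 lower at an unadjusted p under 0.05 (median 0.27, background 6.73% higher). The higher members numbered 14 without control replicate 4 (background 8.83%) and 4 with compression replicates 2 and 3 summed (background 4.4%). The protease gene Lgmn was at 179 ± 14.6 CPM against 138 ± 19.4 (0.37), and Mmp12, macrophage elastase, at 3.96, 12.8, 13.01 and 9.26 CPM under compression against 2.86, 2.95, 1.33 and 6.58 in controls (1.55). Mmp12 was lower in compression replicate 1 than in the other compression libraries and overlapped control replicate 4.

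MHC class II genes, which present antigen on macrophages, dendritic cells and some epithelia, had the largest median difference of the 50 lists in the positive direction. Of 8 measured members all had positive fold changes (median 1.24) and 6 had an unadjusted p under 0.05 (background 6.73% higher). Promoters of 3 members are shown because members of this list moved in the same direction, and these 3 were chosen among those that hold the motif marked. The 120 bases before the transcription start are given 5′ to 3′ in the sense of the gene, from RefSeq on GRCm38.p6, with CCAAT or its reverse complement ATTGG in capitals.
H2-Aa (chr17:34287824-34287943, minus strand): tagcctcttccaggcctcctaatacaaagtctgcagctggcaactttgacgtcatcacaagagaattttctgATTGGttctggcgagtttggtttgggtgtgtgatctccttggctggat
H2-Eb1 (chr17:34305747-34305866, plus strand): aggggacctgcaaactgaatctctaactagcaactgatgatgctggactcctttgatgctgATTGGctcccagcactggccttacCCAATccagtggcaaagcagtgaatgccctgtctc
H2-DMb1 (chr17:34153071-34153190, plus strand): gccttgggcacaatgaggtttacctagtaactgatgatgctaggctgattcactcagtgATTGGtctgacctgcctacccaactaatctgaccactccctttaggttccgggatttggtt
In H2-Aa the motif began 48 bases before the start, in H2-DMb1 61, and in H2-Eb1 59 and 35. These starts are those of RefSeq. In GENCODE, the source of the gene coordinates, H2-DMb1 begins at 34153072, so nearly all of its printed bases lie inside the gene there. CCAAT on either strand, anywhere in the 250 bases before a start, was found in 5 of the 5 members with a promoter in the table. The share over the 27025 genes of that table was 37.5%, and a gene with several promoters counted if any of them held the motif. Within the 120 bases, H2-DMa holds none. The motif was chosen after values were seen, and a match is a description of the letters and not a binding site.

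H2-Aa, an alpha chain gene, stood at 0.451, 0.137, 1.43 and 1.53 CPM in controls and 2.93, 2.41, 2.23 and 2.69 CPM under compression (1.59, adjusted p = 0.354). The groups did not overlap, although control replicates 3 and 4 were well above replicates 1 and 2. Cd74, the invariant chain that escorts class II molecules, stood at 1.19, 1.10, 2.68 and 5.56 CPM and 7.04, 5.70, 5.68 and 6.02 CPM (1.27, adjusted p = 0.34, and 0.0192 without control replicate 4, with a range over the alternatives of 0.0108 to 0.688). Control replicate 4 lay just below the lowest compression library. H2-DMb1, part of the peptide exchange factor, had 0.547, 1.03, 0.884 and 0.639 CPM and 1.18, 1.57, 1.45 and 2.72 CPM (1.15), with compression replicate 4 the highest. The partner chain H2-Ab1 averaged 1.44 ± 0.352 against 0.468 ± 0.466 CPM (1.76), and Ciita, the transactivator of these genes, 0.919 ± 0.241 against 0.414 ± 0.218 CPM (1.22, adjusted p = 0.377). The list score was 1.14 to 1.57 under compression and -0.68 to 0.63 in controls. The adjusted p of H2-Eb1 was 0.0496 without compression replicate 1, 0.277 without control replicate 3, 0.221 without compression replicate 4 and 0.418 without compression replicate 2.

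Interferon response genes were higher mainly in compression replicate 1. The list had 9 of 22 members higher and 0 lower at an unadjusted p under 0.05 (median 0.93, background 6.73% higher). Without control replicate 4, 15 were higher (background 8.83%). Its score was 1.85 in compression replicate 1, 0.10 to 0.47 in the other compression libraries, 0.70 in control replicate 4 and at most -0.04 in the other controls. Irf7, the transcription factor that amplifies the response, stood at 1.16, 0.720, 1.09 and 2.81 CPM in controls and 13.3, 2.66, 2.20 and 1.46 CPM under compression (1.82, adjusted p = 0.377). A single library was high, and the other 3 compression libraries lay within the range of the controls. The immunoproteasome gene Psmb8 had 6.20 CPM in compression replicate 1 and 2.45, 2.16 and 2.14 in the others, against 1.19, 1.20, 1.39 and 2.43 in controls.

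B2m, the light chain of MHC class I, was higher in all compression libraries, with 213, 149.6, 159 and 147 CPM against 118, 117, 123 and 138 CPM (0.43, adjusted p = 0.254), and replicate 1 was again the highest. Ifitm3, which restricts entry of enveloped viruses into cells, stood at 71.7, 50.4, 49.5 and 50.4 CPM against 29.7, 26.8, 42.6 and 46.99 CPM (0.61). Replicates 2 to 4 were nearly equal and above every control. Of cytokine and NF-kB genes 5 of 20 were higher and 0 lower (median 0.28, background 6.73% higher). Without control replicate 4, 9 were higher (background 8.83%). Ccl3, a macrophage chemokine gene (chr11:83647844-83649355, minus strand), stood at 2.28, 2.20, 2.75 and 6.002 CPM and 6.92, 7.59, 8.51 and 8.77 CPM (1.30, adjusted p = 0.252, and 0.00605 without control replicate 4, with a range over the alternatives of 0.00269 to 0.688). Control replicate 4 approached the compression group from below, as it did for other leukocyte genes.

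The related chemokine gene Ccl4 had 2.62 ± 0.438 against 1.38 ± 0.380 CPM (0.95). Il33, an alarmin of epithelium and stroma, stood at 5.18, 3.36, 4.55 and 7.34 CPM in controls and 11.8, 9.27, 9.86 and 7.64 CPM under compression (0.93, adjusted p = 0.252, and 0.022 without control replicate 4, with a range over the alternatives of 0.00363 to 0.688). Control replicate 4 was just below compression replicate 4, the lowest of its group. Nfkbia, the NF-kB inhibitor gene, differed less but more evenly, with 35.7, 39.5, 39.2 and 40.7 CPM and 48.2, 47.5, 48.6 and 46.1 CPM (0.30, adjusted p = 0.273).

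Multiciliated cell genes were higher under compression. Foxj1, the master regulator of motile cilia (chr11:116330704-116335399, minus strand), stood at 41.8, 12.8, 38.1 and 34.1 CPM in controls and 61.6, 69.7, 64.2 and 56.5 CPM under compression (0.99, SE 0.27, adjusted p = 0.309), with 0.655 ± 0.241 CPM at Day 0. Each compression library lay above each control, and control replicate 2 lay far below the other controls. The axonemal genes Dnali1 (3.99, 0.755, 3.33 and 3.19 CPM and 8.71, 7.59, 7.57 and 4.63 CPM, 1.34) and Tekt4 (3.99, 0.961, 3.57 and 2.43 CPM and 7.68, 7.55, 7.03 and 4.02 CPM, 1.25) also kept the groups apart, with replicate 2 the lowest control and replicate 4 the lowest compression library in both genes. Tppp3, a tubulin-binding protein gene, had 38.4 ± 4.32 against 31.1 ± 1.93 CPM (0.30). Of 25 measured members of the list 24 had positive fold changes (median 0.75). At an unadjusted p under 0.05, 14 were higher (background 6.73%) and 0 lower. The list score was 0.68, -1.06, 0.27 and 0.11 in controls and 1.13, 0.98, 0.96 and 0.46 under compression. Control replicate 1 was above compression replicate 4. None of the 25 members passed the adjusted threshold without control replicate 4.

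Club and secretory cell genes lay higher too, with all 12 measured members positive (median 0.63). At an unadjusted p under 0.05 there were 3 (background 6.73% higher). Scgb3a2, a secretoglobin of airway epithelium, stood at 103, 23.8, 66.3 and 37.2 CPM in controls and 109, 176, 186 and 102 CPM under compression (1.31, adjusted p = 0.402). Control replicate 1 was about as high as compression replicates 1 and 4. Cyp2f2, a cytochrome of club cells, had 33.9, 24.7, 28.8 and 16.5 CPM and 38.6, 72.3, 67.6 and 37.2 CPM (1.04, adjusted p = 0.356), and the carbonyl reductase gene Cbr2 13.2, 5.94, 17.2 and 16.8 CPM and 15.4, 31.7, 32.2 and 23.9 CPM (0.97). In all 3 genes the closely similar compression replicates 2 and 3 were the highest. With these 2 libraries summed and control replicate 4 left out, 1 member was higher at an unadjusted p under 0.05 (background 6.43%).

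Surfactant and alveolar type 2 genes were higher under compression, most of all in replicates 2 to 4. Sftpc, the surfactant protein gene that also marks distal progenitors (chr14:70520949-70524081, minus strand), stood at 459.7, 466, 631 and 740.4 CPM in controls and 677, 1194, 1230.0 and 968 CPM under compression (0.83, SE 0.25, adjusted p = 0.321), and at 72.9 ± 23.03 CPM at Day 0. Compression replicate 1 lay inside the range of the controls. Sftpb, another surfactant protein gene, had 21.2, 24.4, 65.1 and 61.2 CPM and 52.6, 234, 225 and 174 CPM (2.01, SE 0.72, adjusted p = 0.377). The phosphate carrier gene Slc34a2 stood at 1.93, 2.37, 13.4 and 12.6 CPM and 16.4, 64.2, 66.6 and 39.6 CPM (2.66, adjusted p = 0.309). Among controls both genes were well above replicates 1 and 2 in replicates 3 and 4, and compression replicate 1 was close to the upper controls.

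Napsa and Ctsh, proteases that process surfactant protein precursors, averaged 3.04 ± 1.12 against 1.29 ± 0.403 CPM and 128 ± 29.4 against 75.8 ± 15.2 CPM. Of 18 measured members 16 were positive (median 0.62). At an unadjusted p under 0.05, 11 were higher (background 6.73%) and 0 lower. With control replicate 4 left out and compression replicates 2 and 3 summed, 11 were higher (background 6.43%). The list score was 0.31 in compression replicate 1, 0.77 to 1.02 in the others and -0.39 to 0.43 in controls.

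Alveolar type 1 genes showed no such shift, with 0 of 19 higher and 1 lower at an unadjusted p under 0.05 (median 0.04). With all libraries, the background for this and the following lists was 6.73% higher and 5.33% lower. The difference between the type 1 and type 2 lists was not tested. Distal tip progenitor genes had a median of -0.01, with 6 of 20 higher and 0 lower. Those that were higher include Id2, a transcriptional inhibitor of tip cells, with 78.6, 87.4, 109 and 108 CPM and 119, 133, 132 and 136 CPM (0.44, adjusted p = 0.307), and Mia, a secreted protein gene, with 20.1, 22.5, 24.1 and 22.9 CPM and 26.1, 27.8, 29.02 and 29.6 CPM (0.33, adjusted p = 0.293). In both the groups did not overlap. Exons of Mia share 41.2% of their length with the model Gm21983 on the same strand. Wnt7b, a Wnt ligand of the epithelium (0.26), and Spry2, a feedback inhibitor of FGF signalling (0.35), overlapped between the groups. In the general epithelium and junction list 6 of 25 were higher and 1 lower (median 0.09), with 3 higher when compression replicates 2 and 3 were summed. Of basal cell and keratin genes 3 of 12 were higher (median 0.19). Krt19, a keratin of simple epithelium and mesothelium, stood at 100.5, 100.2, 102 and 95.5 CPM and 108, 120.4, 120.3 and 126 CPM (0.25, adjusted p = 0.354). The basal cell regulator Trp63 averaged 3.87 ± 0.932 against 2.47 ± 0.458 CPM and the water channel gene Aqp3 2.42 ± 0.526 against 1.54 ± 0.406 CPM. Of neuroendocrine genes 1 of 15 was higher and 0 lower (median -0.07).

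**Figure D3:**
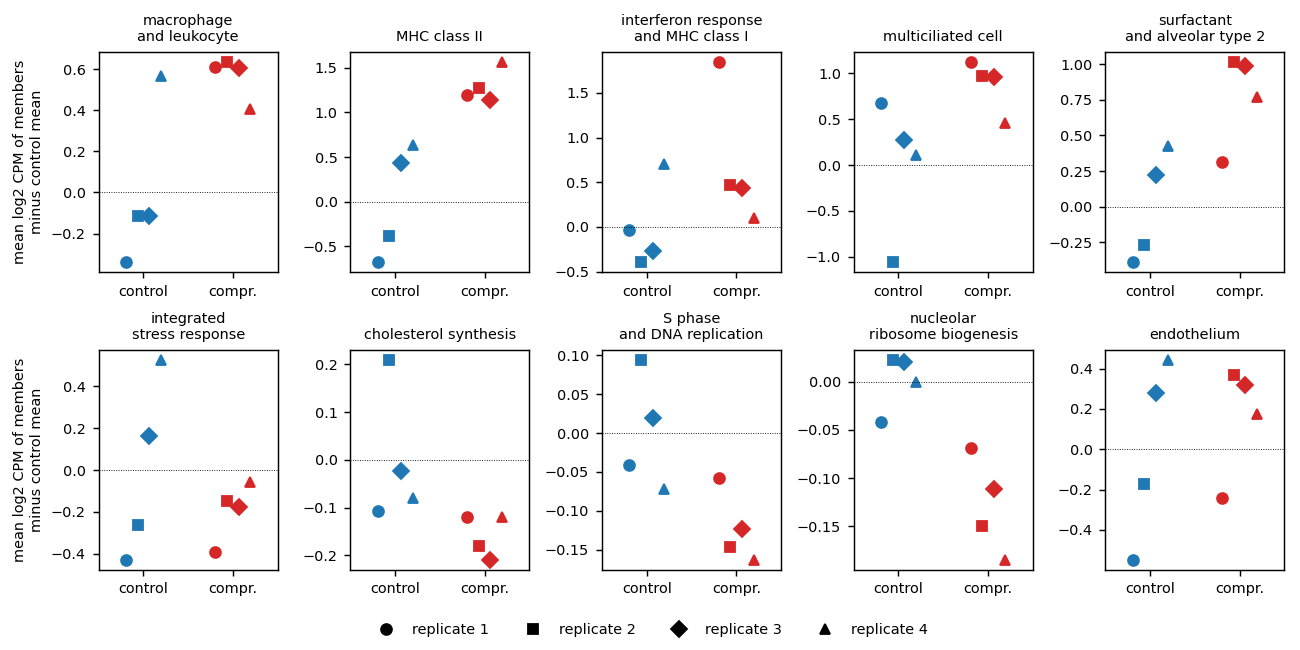
Score of 10 gene lists in each Day 2 library (y axis: mean log2 CPM of the members minus the control mean; x axis: group, blue control and red compression, with the replicate as symbol). Control replicate 4 lies with the compression libraries for leukocyte genes, compression replicate 1 stands alone for interferon genes, and the nucleolar list is lower in all 4 compression libraries than in any control.

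Mesothelial genes moved in both directions. Of 19 measured members 7 were lower and 2 higher at an unadjusted p under 0.05 (background 5.33% and 6.73%), and 5 and 1 with compression replicates 2 and 3 summed. The median was 0.06, and it was -0.08 without control replicate 3 and -0.24 without compression replicate 1. Upk3b, a uroplakin of mesothelial cells, stood at 39.7, 47.8, 27.6 and 22.5 CPM in controls and 22.9, 19.9, 19.5 and 23.96 CPM under compression (-0.68, adjusted p = 0.331). Control replicates 1 and 2 were the highest libraries, and control replicate 4 lay within the compression group. Aldh1a2, the mesothelial enzyme gene of retinoic acid synthesis, had 100.1, 118, 71.1 and 65 CPM and 74.2, 53.9, 52.5 and 55.95 CPM (-0.58), and Wt1, the mesothelial transcription factor, 42.2, 41.3, 33.3 and 29.7 CPM and 32.7, 28.9, 26.1 and 30.4 CPM (-0.31). Both were highest in control replicates 1 and 2.

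Podxl, a sialomucin of mesothelium, vessels and podocytes, kept the groups apart, with 183, 219, 188 and 170.4 CPM and 159, 152, 147 and 155 CPM (-0.31, SE 0.07, adjusted p = 0.252). The members that were higher were Krt19 and Msln, the surface protein mesothelin, at 23.3 ± 6.95 against 17.4 ± 2.11 CPM (0.43). Msln was high in compression replicates 2 and 3 and within the range of the controls in the other 2. Risk genes of congenital diaphragmatic hernia, several of them mesothelial, had 5 of 22 lower and 0 higher (median -0.13, background 5.33% lower). With compression replicates 2 and 3 summed, 3 were lower (background 3.29%). Beside Wt1 the 5 were the matrix gene Frem2 (366, 344, 271 and 226 CPM and 269, 189, 184 and 222 CPM, -0.48), the endocytic receptor gene Lrp2 (26, 26.01, 12.98 and 13.2 CPM and 14.3, 10.5, 11.1 and 13.96 CPM, -0.66), the GATA cofactor gene Zfpm2 (-0.20, adjusted p = 0.38) and the transcription factor gene Myrf (-0.23). For Frem2 and Lrp2 control replicates 1 and 2 again held the high values and control replicate 4 a low one. The score of the risk gene list was -0.06 to 0.03 in controls and -0.10, -0.11, -0.16 and 0.0014 under compression. Compression replicate 4 thus lay within the range of the controls.

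Cholesterol synthesis genes were lower under compression by small amounts. Of 24 measured members 21 had negative fold changes (median -0.17). At an unadjusted p under 0.05, 7 were lower (background 5.33%) and 0 higher. Without control replicate 4 12 were lower and 1 higher (background 6.02% and 8.83%), and with compression replicates 2 and 3 summed 4 were lower (background 3.29%). Promoters of 3 enzyme genes of the pathway are shown as those of the class II genes above, with CCAAT or its reverse complement in capitals, because most members moved in the same direction. They too were chosen among those with the motif in these bases, which Pmvk, Insig1 and Srebf2 do not hold there.
Lss (chr10:76531485-76531604, plus strand): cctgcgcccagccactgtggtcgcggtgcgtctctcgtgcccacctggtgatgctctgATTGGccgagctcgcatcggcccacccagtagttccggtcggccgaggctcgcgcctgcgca
Sc5d (chr9:42264301-42264420, minus strand): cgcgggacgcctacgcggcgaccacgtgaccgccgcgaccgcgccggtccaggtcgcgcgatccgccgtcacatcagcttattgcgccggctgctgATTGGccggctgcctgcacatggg
Cyp51 (chr5:4104698-4104817, minus strand): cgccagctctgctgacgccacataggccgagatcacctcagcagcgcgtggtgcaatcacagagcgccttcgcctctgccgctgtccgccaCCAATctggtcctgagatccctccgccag
The motif began 62 bases before the RefSeq start in Lss, 24 in Sc5d and 29 in Cyp51. In GENCODE Lss begins at 76531588 and Cyp51, on the minus strand, at 4104746. The printed bases therefore run into both genes there, and the motif of Cyp51 lies inside the gene. CCAAT on either strand was found in 16 of the 16 members with a promoter in the table. The share was 37.5% over all 27025 genes of that table, which include genes not tested here. The motif was also in 17 of 26 S phase genes. In other lists it was in 9 of 25 nucleolar genes (36%), 8 of 22 multiciliated (36.4%), 6 of 17 leukocyte (35.3%), 4 of 14 surfactant (28.6%) and 12 of 39 ribosomal protein genes (30.8%), at or below the share of all genes. The E-box CACGTG was found in 4 of 16 cholesterol genes and 6.86% of all genes. These shares describe letters in a window, and their part in the expression differences was not tested.

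Lss, which closes the sterol ring (chr10:76531588-76557138, plus strand), stood at 109.9, 135, 119 and 122 CPM in controls and 108, 96.7, 98.95 and 106 CPM under compression (-0.24, SE 0.07, adjusted p = 0.31). The groups did not overlap, with compression replicate 1 closest to the controls. The desaturase gene Sc5d had 62.8, 69.3, 56.6 and 56.7 CPM and 54.2, 54.1, 52.6 and 47.6 CPM (-0.24). Cyp51, the sterol demethylase, had 233, 303, 201 and 183 CPM and 193, 177, 182 and 165 CPM (-0.36), with control replicate 4 below compression replicate 1. In these 3 genes control replicate 2 held the highest level. The mean levels at Day 0 were below both Day 2 groups for Lss (91.1 ± 5.98 CPM), Sc5d (39.4 ± 3.03) and Cyp51 (158 ± 21.3).

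Genes of DNA replication were lower under compression by small amounts. In the S phase list 30 of 32 members had negative fold changes (median -0.12). At an unadjusted p under 0.05, 8 were lower (background 5.33%) and 0 higher, and 13 were lower without control replicate 4 (background 6.02%). Cdc6, which loads the replicative helicase, stood at 51.9, 58.8, 56.96 and 52.1 CPM in controls and 49.6, 43.9, 46.8 and 42.5 CPM under compression (-0.27, adjusted p = 0.309), without overlap. The polymerase gene Pole averaged 93.5 ± 11 against 115 ± 9.35 CPM (-0.30), and the initiation factor gene Mcm10 48.8 ± 2.48 against 56.4 ± 5.21 CPM (-0.21). In the G2/M list, which covers division, 3 of 30 were lower and 0 higher (median -0.05, 8 members positive), and the lower members numbered 5 without control replicate 4 and 1 with compression replicates 2 and 3 summed. Its score overlapped between the groups, with -0.04 to 0.04 in controls and -0.11 to -0.02 under compression. Mki67, the proliferation marker Ki-67, stood at 980.1, 822, 801 and 734 CPM and 857, 609.7, 637 and 595 CPM (-0.31, adjusted p = 0.396). Of the compression libraries, replicate 1 was within the range of the controls and the other 3 were below it. The spindle checkpoint kinase gene Ttk (-0.24) and the kinetochore motor gene Cenpe (-0.20) were the other 2 G2/M members at an unadjusted p under 0.05.

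Nucleolar factors, which make and assemble ribosomes, were lower, while genes of ribosomal proteins lay slightly above 0. Of 34 nucleolar genes 33 had negative fold changes (median -0.13). At an unadjusted p under 0.05, 14 were lower (background 5.33%) and 0 higher. Both without control replicate 4 (background 6.02%) and with compression replicates 2 and 3 summed (background 3.29%), 10 were lower. The list score was -0.04 to 0.02 in controls and -0.18 to -0.07 under compression, so the groups did not overlap. After Heatr1, the members with the smallest p were Utp20, a small subunit processing factor (104, 93.6, 95.5 and 89.1 CPM and 90.02, 72.6, 75.2 and 74.4 CPM, -0.29, adjusted p = 0.273), Rrp1b (66.3, 64.2, 66.8 and 67.8 CPM and 60.4, 53.7, 54.4 and 59.1 CPM, -0.22) and Polr1a, the large subunit of RNA polymerase I (109, 110.5, 109 and 101 CPM and 103, 86.8, 86.05 and 91.96 CPM, -0.23). Compression replicate 1 was the closest to controls in Utp20 and Polr1a. Of 50 cytosolic ribosomal protein genes 47 had positive fold changes (median 0.11), with 1 at an unadjusted p under 0.05 (2 without control replicate 4 and 0 with compression replicates 2 and 3 summed). The ribosomal RNA precursor Rn45s took 1.29%, 0.641%, 1.95% and 1.11% of counts in controls and 0.553%, 2.67%, 2.14% and 5.64% under compression. Its part in these differences was not tested.

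Stress response lists moved with control replicate 4. In the integrated stress response list, which covers amino acid supply, 7 of 27 were lower and 0 higher (median -0.18, background 5.33% lower). Without control replicate 4, only 1 was lower and 1 higher (median -0.06, background 6.02% and 8.83%). Asns, asparagine synthetase, stood at 45.1, 53.4, 59.9 and 87.2 CPM in controls and 34.99, 46.3, 46.7 and 46.6 CPM under compression (-0.49), and Slc7a1, a cationic amino acid transporter gene, at 70.1, 70.2, 82.6 and 105 CPM and 64.2, 64.1, 61.7 and 67.2 CPM (-0.35). Control replicate 4 held the highest level of both. In the unfolded protein response list 19 of 21 were negative and 1 was lower at an unadjusted p under 0.05 (0 without control replicate 4), and the median moved from -0.18 to -0.04 without control replicate 4. The 7 liver genes tested had a median of -4.65 with that library and 0.19 without it.

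Among other programmes, NRF2 antioxidant genes had 1 of 20 higher and 0 lower (median 0.10), p53 targets and apoptosis genes 2 of 21 higher and 0 lower (0.05) and hypoxia and glycolysis genes 1 of 29 higher and 0 lower (0.07). With all libraries these shares were near or below the background of 6.73%. Without control replicate 4 the NRF2 list had 7 of 20 higher (median 0.15, background 8.83%), and 4 with compression replicates 2 and 3 also summed (background 6.43%). With only these 2 libraries summed, the p53 list had 1 higher. Perp, a desmosomal p53 target, averaged 41.1 ± 7.73 against 29 ± 5.30 CPM (0.51).

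Genes of matrix remodelling lay higher. Of matrix proteases and their inhibitors 6 of 21 were higher and 1 lower (median 0.15, background 6.73% and 5.33%). The numbers were 9 and 0 without control replicate 4 (background 8.83% and 6.02%). With compression replicates 2 and 3 summed they were 4 and 0 (background 4.4% and 3.29%). Plau, the plasminogen activator urokinase, stood at 36.6, 39.7, 32.96 and 74.1 CPM in controls and 41.5, 106, 104 and 88.9 CPM under compression (0.90). Compression replicate 1 was near controls 1 to 3, and control replicate 4 lay between them and the other compression libraries. Mmp9, a gelatinase gene of leukocytes, was at 21.98 CPM in compression replicate 1 and at 2.41, 1.76 and 2.59 in the others, against 0.644, 1.92, 1.53 and 1.53 in controls. Compression replicate 1 therefore carried much of the fold change of Mmp9 (2.35), although compression replicates 2 and 4 also lay above every control.

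In the cartilage matrix list 7 of 18 were higher (background 6.73%) and 0 lower (median 0.27, and 0.16 without control replicate 1). Beside Mgp these include Col9a1, a fibril-associated collagen, with 5.70, 6.999, 7.71 and 7.22 CPM and 10.4, 8.99, 8.58 and 8.52 CPM (0.40), and Hapln1, a link protein of aggrecan, with 18.3 ± 4.06 against 12.3 ± 2.71 CPM (0.57). Of 20 collagen genes 2 were higher (median 0.10), 4 without control replicate 4 and 1 with compression replicates 2 and 3 summed. Col23a1, a transmembrane collagen, stood at 94.6, 88.9, 93.3 and 87.3 CPM and 122, 117, 120.1 and 118 CPM (0.39, SE 0.09, adjusted p = 0.255), with little spread in either group. In the fit of only the 8 Day 2 libraries its adjusted p was 0.0473 (range over the alternatives 0.00695 to 0.688), and its Day 0 mean was 169 ± 28.8 CPM.

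Elastic fibre genes had 2 of 19 higher and 1 lower (median 0.15, background 6.73% and 5.33%). The lower members numbered 2 without control replicate 4 and 0 with compression replicates 2 and 3 summed. The microfibril gene Mfap4 averaged 407 ± 43.7 against 327 ± 26.1 CPM and the crosslinking enzyme gene Loxl1 51.98 ± 7.30 against 40.5 ± 6.33 CPM, while the fibrillin gene Fbn2 was lower, at 667 ± 124 against 869 ± 119 CPM. Laminin and basement membrane genes had 2 of 19 lower and 0 higher (median -0.01), Frem2 and the laminin chain gene Lama1 (-0.38), and 1 lower in either of these alternatives.

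Genes tied to mechanical sensing showed few differences. YAP and TAZ are transcriptional cofactors that enter the nucleus of stretched or spread cells. Of 27 of their targets 2 were higher and 1 lower (median 0.03), shares near the background of 6.73% and 5.33%, and 1 was higher with compression replicates 2 and 3 summed. Cyr61, a matricellular target, stood at 32.1, 36.2, 31.1 and 43.99 CPM in controls and 32.3, 60.4, 61.1 and 53.98 CPM under compression (0.54, adjusted p = 0.387), and Ctgf, its relative, at 22.5, 21.6, 20.4 and 29.5 CPM and 18.9, 36.3, 37.9 and 34 CPM (0.44, adjusted p = 0.424). In both genes compression replicates 2 to 4 were above all controls and replicate 1 was not. The other members at an unadjusted p under 0.05 were Crim1, a BMP-binding membrane protein gene (0.23), and Dock5, an exchange factor gene (-0.28).

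Of mechanosensitive channel genes 2 of 17 were higher and 1 lower (median -0.06, and 0.00 without control replicate 4), and 1 was higher with compression replicates 2 and 3 summed. Piezo2 stood at 48.5, 38.6, 33.1 and 29.6 CPM and 29.6, 28.5, 27.9 and 24.8 CPM (-0.44, adjusted p = 0.34). Its controls ran from the level of the highest compression library upward. Piezo1 had 153, 167, 169 and 163 CPM and 140.3, 147, 132 and 184 CPM (-0.11, 95% interval -0.32 to 0.10), and compression replicate 4 was the highest of all. The epithelial sodium channel gene Scnn1a averaged 13.8 ± 2.10 against 8.63 ± 2.72 CPM (0.67) and Trpv2, a channel gene of macrophages among other cells, 5.58 ± 1.54 against 3.40 ± 1.44 CPM (0.74). Of integrin, focal adhesion and actin genes 2 of 34 were lower and 0 higher (median -0.03), with 4 lower and 1 higher without control replicate 4 and 1 lower with compression replicates 2 and 3 summed.

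Immediate early genes, which respond to many stimuli within minutes of them, had 3 of 21 higher and 0 lower (median 0.14, background 6.73% higher). Without control replicate 4, 6 were higher (background 8.83%) and the median was 0.32. Junb stood at 14.6, 13.9, 17.5 and 23.2 CPM and 19.2, 25.8, 22.8 and 32.5 CPM (0.55), and Dusp1, a phosphatase gene that ends MAP kinase signals, at 16.5, 22.4, 21.6 and 23.6 CPM and 18.2, 39.4, 35.5 and 28.6 CPM (0.54). In both, the lowest compression library was replicate 1, which overlapped the controls. Ier2 averaged 55.2 ± 12.97 against 42.7 ± 3.98 CPM (0.37).

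Most signalling pathways of lung branching had counts near or below the background of 6.73% higher and 5.33% lower. BMP genes, with 15.4% higher, and hedgehog genes, with 14.3% lower, lay above it. BMP ligands and Id targets had 4 of 26 higher and 0 lower (median 0.10, and 0.05 without compression replicate 4). They include Smad7, an inhibitor of BMP and TGF-beta signals, with 48.2, 48.9, 53.2 and 50.4 CPM and 58.1, 62.8, 58.2 and 71.7 CPM (0.32, adjusted p = 0.309), and Id1 with 50.7 ± 12.6 against 36.96 ± 5.91 CPM (0.46). Smad7 kept the groups apart. For the hedgehog pathway, by which epithelium signals to mesenchyme, the numbers were 1 of 14 higher and 2 lower (median -0.09). The receptor and target gene Ptch1 averaged 250.2 ± 11.3 against 291 ± 25.7 CPM (-0.22), the ligand-binding target Hhip 162 ± 9.51 against 188 ± 19.9 (-0.21), and the coreceptor gene Gas1, which the pathway represses, 53.3 ± 5.89 against 43.5 ± 5.79 (0.29).

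For Wnt genes 2 of 34 were higher and 2 lower (median 0.05), with the inhibitor gene Dkk2 at 0.45 and the receptor-degrading ligase gene Rnf43 at -0.22. FGF and ERK feedback genes had 2 of 23 higher and 0 lower (0.08), TGF-beta genes 1 of 20 higher and 1 lower (0.00), Notch genes 0 of 19 higher and 0 lower (0.04) and retinoic acid genes 0 of 18 higher and 1 lower (-0.05). With control replicate 4 left out, TGF-beta genes had 2 higher and 3 lower and retinoic acid genes 1 higher. With compression replicates 2 and 3 summed, 1 of the Wnt genes and 0 of the TGF-beta genes were lower, 0 of the FGF genes were higher, and the retinoic acid median was 0.01.

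VEGF ligands and receptors were followed because the series title names the family. None of the 10 measured genes had an unadjusted p under 0.05 in either direction in the fit of 12 libraries (median 0.11). Vegfa, the main ligand (chr17:46016993-46032369, minus strand), stood at 456, 479.7, 473 and 438 CPM in controls and 408, 399.9, 414 and 417 CPM under compression, with 359 ± 103 CPM at Day 0. Every compression library lay below every control, and the Day 0 libraries spread far more widely than either Day 2 group. The log2 fold change of -0.17 had a 95% interval of -0.49 to 0.15 and an adjusted p = 0.633 in the fit of 12 libraries, in which Day 0 adds to the estimated spread. In edgeR's fit of only the 8 Day 2 libraries Vegfa was the 1 member with an unadjusted p under 0.05 (0.00838), with an adjusted p of 0.339.

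The lymphatic growth factor gene Vegfc stood at 6.69, 6.31, 6.02 and 7.15 CPM and 7.80, 7.24, 7.13 and 7.16 CPM (0.17), with control replicate 4 level with the lower compression libraries. Vegfb was at 55.4 ± 9.70 against 50.01 ± 5.33 CPM (0.15), Figf, which encodes VEGF-D, at 73.4 ± 8.22 against 67.4 ± 6.61 (0.12), and the placental growth factor gene Pgf at 28.8 ± 0.916 against 26.8 ± 3.78 (0.10). Among receptors, Kdr, the main signalling receptor of endothelium, stood at 23.9, 26.97, 32.6 and 36.7 CPM and 37.8, 31.02, 34.3 and 25.6 CPM (0.11, 95% interval -0.34 to 0.55). The decoy receptor gene Flt1 had 0.579, 1.06, 1.29 and 3.06 CPM and 0.837, 2.48, 2.16 and 2.14 CPM (0.45, 95% interval -0.55 to 1.45), and the lymphatic receptor gene Flt4 20.4, 25.1, 16.6 and 19.3 CPM and 25.4, 18.3, 17.3 and 14.2 CPM (-0.12). The groups overlapped for these 3 receptors and for the coreceptor genes Nrp1 (0.16) and Nrp2 (0.02). The unadjusted edgeR p of Flt1 was 0.0322 with control replicate 4 left out. The intervals of Flt1 and Kdr in the fit of 12 libraries leave room for differences in either direction.

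Of 32 endothelial genes 0 were higher and 0 lower at an unadjusted p under 0.05 (median 0.14), and 2 were higher without control replicate 4 (median 0.27). The list score was -0.55, -0.17, 0.28 and 0.44 in controls and -0.24, 0.37, 0.32 and 0.18 under compression. Libraries within a group differed more than the groups. Pericyte and smooth muscle genes had 1 of 21 higher and 1 lower (-0.01) and lung mesenchyme regulators 0 of 22 higher and 2 lower (-0.04), of which 0 stayed lower with compression replicates 2 and 3 summed.

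Cells that lie near or inside the explant were followed as well. Neuron and neural crest genes had 3 of 19 higher and 1 lower (median 0.09, background 6.73% and 5.33%). With compression replicates 2 and 3 summed, 0 were lower. The glial regulator gene Sox10 was at 2.91 ± 0.727 CPM under compression against 1.87 ± 0.412 CPM in controls (0.64). Red cell genes had 0 of 9 higher and 0 lower (median -0.32, and 0.19 with 1 higher without control replicate 4), heart muscle genes 1 of 9 higher and 0 lower (-0.28) and skeletal muscle genes 0 of 6 higher and 0 lower (-0.25).

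**Figure D4:**
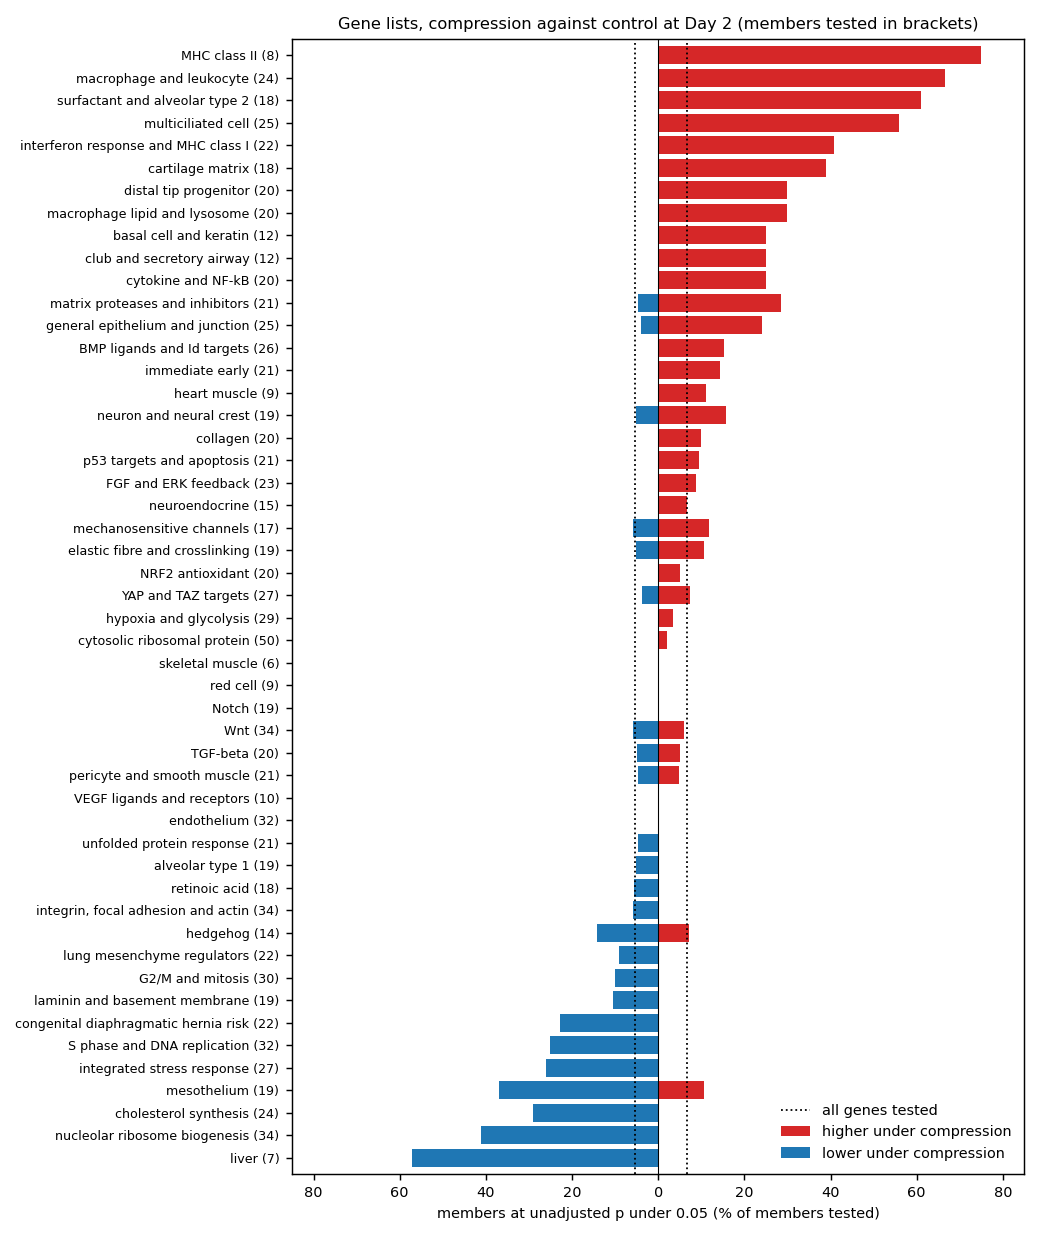
Share of members of each of 50 gene lists at an unadjusted p under 0.05 (x axis, percent of members tested; red to the right higher, blue to the left lower under compression), with the number of members tested in brackets. Dotted lines mark the shares over all 15246 genes, 6.73% and 5.33%; MHC class II, leukocyte, surfactant and multiciliated genes reach farthest to the right, and liver, nucleolar, mesothelial and cholesterol genes farthest to the left.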

How the data were processed

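The values are raw counts of reads per gene symbol, as deposited by the authors in a single table (24421 symbols, of which 4505 were at 0 throughout). The submitters' processing notes name fastp, STAR and the mm10 genome build. The counting tool, annotation and strand setting are not stated in the labels or file headers. Reads of overlapping genes on opposite strands, and of close paralogs, therefore cannot be told apart. Among the 138 genes with values in the text, 10 have more than 10% of their exon length covered from the other strand. Groups and replicate numbers come from the sample titles, and all 12 columns were mapped by description.

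The analysis used edgeR 4.0.16 in R 4.3.3. Low genes were removed by filterByExpr (by group, min.count 10 and min.total.count 15), library sizes were TMM-scaled, and all 12 libraries entered a robust quasi-likelihood fit with the group as the only term, tested for Day 2 compression minus Day 2 control. P-values were adjusted over all 15246 genes by the Benjamini-Hochberg method, and fold changes are log2 of compression over control. A positive value means higher under compression. For list scores, log2 CPM was computed at a prior count of 2. Alternatives were DESeq2 1.42.0, limma-voom with sample quality weights (limma 3.58.1), RLE size factors, no filter, a min.count of 50, only the 8 Day 2 libraries, the replicate number as a block, the sex of the library as a term, each Day 2 library left out in turn, and compression replicates 2 and 3 summed, with and without control replicate 4. The fit of 8 libraries without control replicate 4 was added after seeing the data. Deviations of libraries with the same replicate number had correlations of 0.166, -0.18, -0.12 and 0.0991. Only control replicate 1 had the compression library of its own number as closest match. So few values cannot exclude pairing, and the main fit did not treat the numbers as pairs. The fit was also run on simulated counts of independent libraries, with no near-identical pair and no library holding liver transcripts. That run does not bear on either feature of these data.

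The comparison and the 50 gene lists (1124 symbols, 1054 tested) were chosen with earlier results of these data known, so lists are described by counts and medians and carry no test. Genes named are the 12 higher and 12 lower with the smallest p among genes of at least 1 CPM without overlap between the groups, the 6 largest fold changes each way among such genes at an unadjusted p under 0.05, for each list at most 4 of its members, by smallest p, all VEGF genes, and up to 12 genes called both by DESeq2 and without control replicate 4. Predicted genes were left out, and some members that the rule allows are given only within counts or not reported here. Itgam, Ptprc, Adgre1, Lyz2, Itgal, Ccl9, Cd14, Cybb, Ciita, H2-Ab1, Irf7, Sftpb, Msln, Myrf, Ctgf and Piezo1 fall outside the rule and were chosen after their values were seen. Coordinates come from GENCODE on GRCm38 (135 genes by symbol and 3 by an older symbol), and promoters from RefSeq on GRCm38.p6, which matched 5 of 8 class II genes and 16 of 24 cholesterol genes. The motifs CCAAT (37.5% of all genes with a promoter), CACGTG (6.86%), TGCGTCA (2%) and GTTGCC (11.8%) were counted on both strands of the 250 bases before a start. Longer motifs were looked at and are not reported here.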

Additional observations from a re-analysis of the deposited data

Results flagged for a closer look

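Of 276 sets of 4 values (138 genes in 2 Day 2 groups), 31 held a library that stood apart from the other 3 by Dixon's criterion, which chance meets in about 5% of sets. The genes of a list share libraries, so these sets are not independent. Control replicate 4 was the high library in 11 of them. Among leukocyte and related genes these were Ccl3 (6.002 CPM, others 2.20 to 2.75), Rassf4 (27.1 CPM, others 18.2 to 18.8), Hcls1 (7.34 CPM, others 3.70 to 3.88), Rac2 (12.1 CPM, others 7.10 to 7.51), Ptprc (14.4 CPM, others 6.76 to 7.95), Itgal (3.32 CPM, others 0.515 to 0.714) and Cybb (19.9 CPM, others 5.76 to 7.24). The others were Adora1 (2.55 CPM, others 1.13 to 1.32), Plcxd2 (10.5 CPM, others 6.53 to 6.83), Psmb8 (2.43 CPM, others 1.19 to 1.39) and Plau (74.1 CPM, others 32.96 to 39.7). Compression replicate 1 was the high library in 11 sets, with immune and protease genes Itgal (3.42 CPM, others 2.40 to 2.56), Ifitm3 (71.7 CPM, others 49.5 to 50.4), Psmb8 (6.20 CPM, others 2.14 to 2.45), Irf7 (13.3 CPM, others 1.46 to 2.66) and Mmp9 (22.0 CPM, others 1.76 to 2.59). The others of that library were Usp24 (126 CPM, others 111 to 113), Ccdc153 (2.02 CPM, others 0.699 to 0.809), Vegfc (7.80 CPM, others 7.13 to 7.24), Aldh1a2 (74.2 CPM, others 52.5 to 56.0), Mki67 (857 CPM, others 595 to 638) and Utp20 (90.0 CPM, others 72.6 to 75.2). The same library was low for Asns (35.0 CPM, others 46.3 to 46.6) and Mfap4 (342 CPM, others 423 to 438). High values elsewhere were Ift27 (24.8 CPM, others 23.6 to 23.8) in compression replicate 3, Pnpla3 (7.99 CPM, others 4.83 to 5.24) in control replicate 2, Ccl4 (3.27 CPM, others 2.36 to 2.48) in compression replicate 4, Cenpe (219 CPM, others 189 to 194) in control replicate 1 and Rnf43 (47.0 CPM, others 39.4 to 40.2) in control replicate 2. Low values elsewhere were Ncf1 (10.2 CPM, others 14.7 to 15.6) in compression replicate 4 and Pole (101 CPM, others 118 to 121) in control replicate 4.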

How the results depend on the processing

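Against 0 genes past the adjusted threshold with all 12 libraries, DESeq2 called 69, limma-voom with sample weights 1913, the fit of only the 8 Day 2 libraries 4, that fit without control replicate 4 11, and the fit with compression replicates 2 and 3 summed and control replicate 4 left out 10. Other size factors, no filter, a stricter filter, a term for sex and compression replicates 2 and 3 summed called 0. Leaving out a single library gave 0 to 53 calls. Calls numbered 53 without control replicate 4 and 19 without compression replicate 1. There was 1 each without control replicate 3 and without compression replicate 4. With the replicate number as a block 0 genes were called and 2499 had an unadjusted p under 0.05. The count at an unadjusted p under 0.05, 1839, became 4543 with limma-voom and 1183 with compression replicates 2 and 3 summed, and ranged from 1113 (without compression replicate 2) to 3078 (without compression replicate 1) when single libraries were left out, with 1219 without control replicate 2. The cause was not tested. Of 138 genes, 136 kept the sign of their fold change in the 19 alternatives. Flt4 turned to 0.0053 without control replicate 2 (range over single libraries left out -0.297 to 0.0053). Nrp2 turned to -0.034 with limma-voom, -0.0013 without control replicate 3 and -0.058 without compression replicate 1 (range -0.058 to 0.068). Medians of 44 of 50 lists moved by less than the spread between replicates in the alternatives. The other 6 were those of liver genes (-4.65, but 0.19 without control replicate 4), mesothelium (-0.24 without compression replicate 1), mechanosensitive channels, cartilage matrix (0.16 without control replicate 1), BMP ligands and Id targets (0.05 without compression replicate 4) and retinoic acid genes, which turned from -0.05 to positive in 6 alternatives. Whether compression replicates 2 and 3 are independent limits every p-value, and low genes such as H2-Aa and Itln1 rest on few counts.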
